A study of Mus musculus with 18 samples.

Results

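The genes described here maintain and transcribe the mitochondrial genome, and were examined in embryonic mouse lungs of stage 14.5 dpc (days post coitus). The group held 10 nuclear genes, chosen by name, out of 23420 gene rows shared by the 3 deposited tables: Tfam, Tfb1m, Tfb2m, Polrmt, Polg, Polg2, Ssbp1, Top1mt, Nrf1 and Ppargc1b. All 10 were found in all 3 tables, and all 10 passed the filter on low values in each table. RNA-seq had been performed on whole embryonic lungs of 3 lines, with 3 control and 3 deficient lungs in each. Deficient lungs were Rptorf/f; ShhCre/+, Tfamf/f; ShhCre/+ or Cox10f/f; ShhCre/+, and the littermate controls carried 1 floxed allele with the same driver (Rptorf/+; ShhCre/+, Tfamf/+; ShhCre/+ or Cox10f/+; ShhCre/+). ShhCre is active in the lung epithelium, so the mesenchyme, vessels and blood of a deficient lung kept the gene, and the epithelium of every control lung was expected by design to have lost 1 copy. The labels do not say whether each sample was a separate embryo, so p-values measure the spread between these samples.

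Rptor encodes Raptor, a defining subunit of mTOR complex 1 (mTORC1), which senses nutrients and energy. Tfam packages mitochondrial DNA and starts its transcription, and Cox10 converts heme B to heme O, a step towards the heme A of cytochrome c oxidase. Mitochondrial DNA is copied and transcribed by nuclear-encoded proteins imported into the organelle. TFAM bends the promoter, TFB2M and the RNA polymerase POLRMT start the transcript, and a DNA polymerase made of POLG and POLG2 copies the genome with the help of the single-stranded DNA binding protein SSBP1. The nuclear factors NRF1 and GABP, an ETS family factor, are known to bind promoters of many such genes, and coactivators of the PGC-1 family work with them. None of the rows used here is a mitochondrially encoded transcript, so the products of this machinery were not measured.

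The promoters were searched for the letters of the NRF1, ETS and YY1 cores, because these factors are the textbook regulators of the group. RefSeq windows (build GRCm38.p6, from 250 bases before to 50 bases after a start) were matched for 8 of the 10 genes, and Top1mt and Ppargc1b were not matched. The ETS core CCGGAAG, searched on both strands, occurred in 5 of the 8 genes, against 8.86% of 32851 windows. The NRF1 core GCGCANGCG occurred in 2 of the 8 genes, against 6.25% of the windows, and the YY1 core AAGATGGCG in 0 of the 8, against 1.4%. Each match is given here on the strand of the gene, 5′ to 3′, with the matched letters in capitals. All these genes lie on the minus strand except Ssbp1, which lies on the plus strand, and the 2 NRF1 matches of Polrmt overlap. The Tfb2m match began 12 bases after the start, whereas the ETS matches began at positions -47 (Tfam), -43 (Polrmt), -38 (Polg), -29 (Polg2) and -47 (Ssbp1) relative to the start.
Tfam, ETS core, chr10:71238075-71238101: ctgccgcggaCCGGAAGtccgggcttc
Tfb2m, NRF1 core, chr1:179546246-179546274: ctaggtcgttCGCATGCGCcattcgtaat
Polrmt, NRF1 core, chr10:79746568-79746596: ctgcaggcggCGCGTGCGCgtgcgcactg
Polrmt, NRF1 core, chr10:79746562-79746590: gcggcgcgtgCGCGTGCGCactgcgggca
Polrmt, ETS core, chr10:79746608-79746634: cctaagagcgCTTCCGGcagtcgcaga
Polg, ETS core, chr7:79466295-79466321: aggacctcacCCGGAAGtccctctgca
Polg2, ETS core, chr11:106779550-106779576: gggtgacgctCTTCCGGgggcgtggtc
Ssbp1, ETS core, chr6:40471411-40471437: gctccgtgcgCCGGAAGcgagccgctg

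Tfb2m and Polrmt, the genes with the NRF1 core, are shown with the 250 bases before their start as well, because their levels moved together most closely across the lungs (below). Theirs was the highest correlation of 45 pairs, and a link between the core and the levels was not tested. Capitals mark the ETS core in Polrmt. The NRF1 matches reach past the start and are not marked. A match is a run of letters and no measure of binding. Of the 250 bases before the RefSeq start, 236 (Tfam), 116 (Ssbp1), 89 (Polg) and 26 (Tfb1m) lie in exons of the same gene in the GENCODE annotation, so these starts depend on the annotation. The ETS matches of Tfam, Ssbp1 and Polg lie wholly in such exons.
Tfb2m, 250 bases before the start, chr1:179546277-179546526: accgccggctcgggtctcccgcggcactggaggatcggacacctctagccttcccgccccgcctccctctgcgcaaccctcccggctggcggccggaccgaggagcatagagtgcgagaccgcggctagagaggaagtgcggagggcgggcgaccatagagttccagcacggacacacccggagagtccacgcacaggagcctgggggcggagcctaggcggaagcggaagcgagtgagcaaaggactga
Polrmt, 250 bases before the start, chr10:79746582-79746831: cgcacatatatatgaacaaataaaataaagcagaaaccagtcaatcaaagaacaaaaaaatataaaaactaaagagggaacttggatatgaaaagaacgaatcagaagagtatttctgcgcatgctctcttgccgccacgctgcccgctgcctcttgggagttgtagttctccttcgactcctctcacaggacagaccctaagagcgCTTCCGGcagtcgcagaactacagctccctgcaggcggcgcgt

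The libraries were similar in depth, with summed normalised read counts of 27727202 to 29611064 and 17671 to 17910 genes above 0. The level of the targeted gene overlapped between control and deficient lungs in each line. The counts span the whole gene, including exons outside the floxed part. Rptor ranged from 2197 to 2298 in controls and from 1986 to 2442 in Rptor-deficient lungs, and Cox10 from 753 to 824 in controls and from 743 to 829 in Cox10-deficient lungs. The target, Tfam included (below), gave no check of the labels. Epithelial markers did move. The summed level of the 8 markers fixed for epithelium ranged from 29787 to 30661 in controls and from 11765 to 15427 in Rptor-deficient lungs (45.2% of control), with all 8 lower by limma at an adjusted p below 0.05. The same sum was at 82.8% of control in Tfam-deficient lungs, where 4 of 8 were called lower, and at 76.6% in Cox10-deficient lungs, where 1 of 8 was called lower.

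The change of the 10 genes was small. Of the 10, 1 was called for Rptor, 0 for Tfam and 0 for Cox10, by limma on log2(normalised read count + 1) with an adjusted p below 0.05. Among all genes tested, 34.8% were called for Rptor (18.2% lower and 16.6% higher), 4.66% for Tfam and 0.475% for Cox10. The Tfam and Cox10 shares, of 702 and 71 genes, were unstable: leaving out 1 lung gave 354 to 1114 and 3 to 255 genes. At an unadjusted p below 0.05, limma picked 2 of the 10 in the Rptor line (Tfb2m and Polrmt), where it picked 45.6% of all genes. It picked 0 of the 10 in the Tfam and Cox10 lines, against 17.4% and 13% of all genes. The median log2 fold change of the 10 was -0.08, -0.01 and -0.08 for Rptor, Tfam and Cox10 in that order, and the medians of all genes were 0.01, 0.00 and 0.00. Leaving out 1 lung moved the medians of the 10 between -0.0833 and -0.0584 (Rptor), -0.0352 and 0.0094 (Tfam), and -0.107 and -0.0418 (Cox10). Control and deficient values did not overlap for 4 of the 10 genes in the Rptor line (Tfam, Tfb2m, Polrmt and Polg, all lower in deficient lungs), as for 50.3% of all genes. In the Tfam line this held for 0 of the 10, against 22.8% of all genes. In the Cox10 line it held for 2 of the 10 (Ssbp1 and Nrf1, both lower), against 21.3% of all genes.

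**Figure D1:**
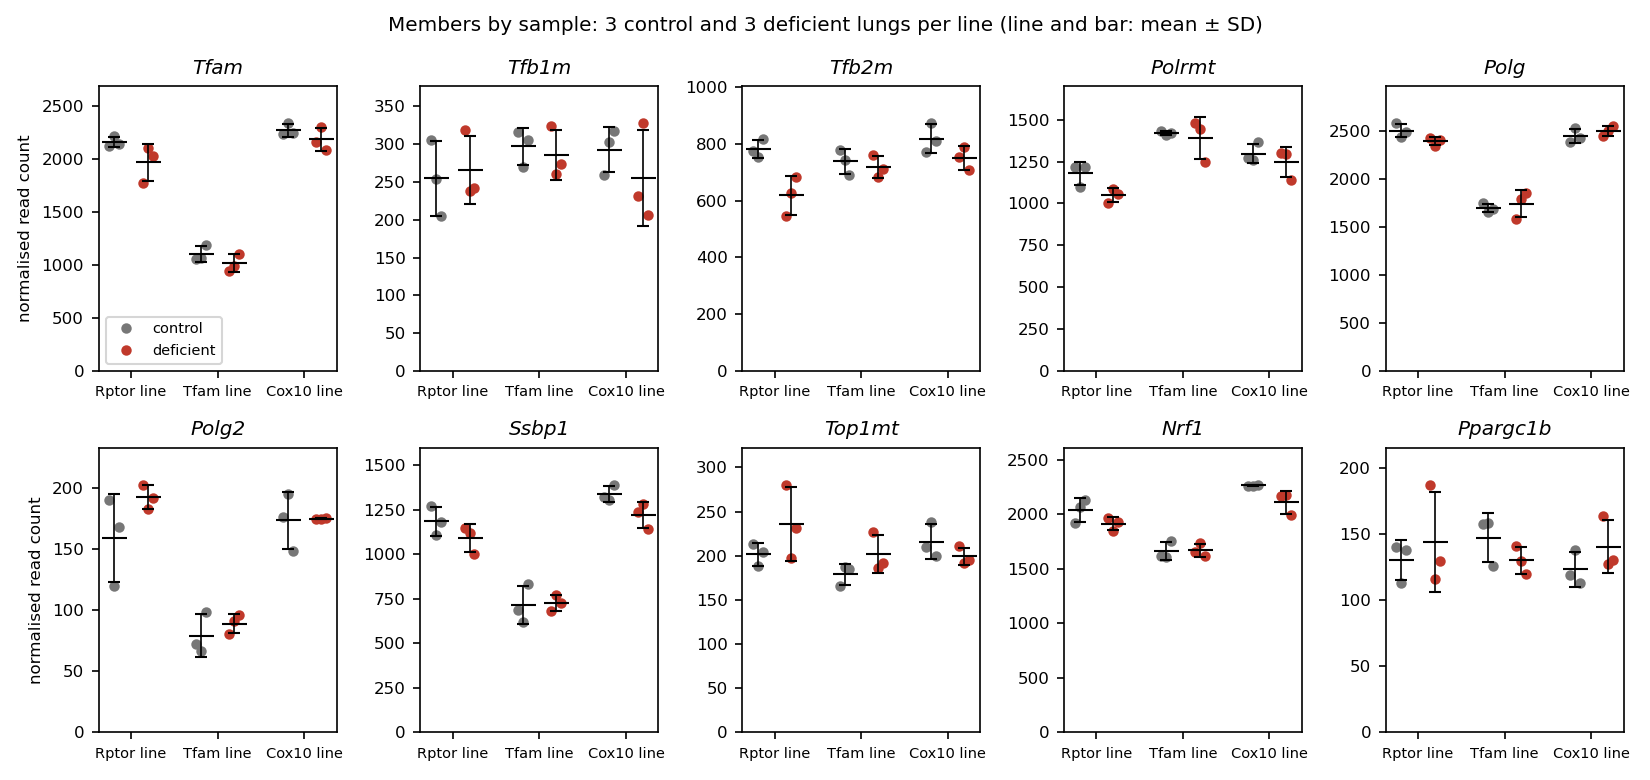
Normalised read count (vertical axis, from 0) of each of the 10 genes in the 18 lungs, grouped by line, with control lungs in grey and deficient lungs in red. Horizontal marks and bars give the mean ± SD of 3 lungs. The 3 Rptor-deficient lungs lie below the 3 controls for Tfam, Tfb2m, Polrmt and Polg, and the Tfam line sits at about the same low Tfam level in both groups.

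Tfam (chr10:71225464-71238280, minus strand), the packaging and transcription factor, was the targeted gene of the Tfam line. In that line it measured 1057, 1063 and 1185 in controls and 940, 994 and 1107 in deficient lungs, which overlapped. The deficient lungs were at 91.9% of control, with a 95% interval of 81.5% to 104% (log2 fold change -0.12, SE 0.08, limma, adjusted p = 0.472). In the Rptor line it measured 2125, 2216 and 2143 in controls and 1769, 2102 and 2026 in deficient lungs. All 3 deficient lungs were lower, by 0.14 on the log2 scale, which did not pass the test (log2 fold change -0.14, SE 0.07, limma, adjusted p = 0.167). Over the 6 fits that left out 1 lung this log2 fold change lay between -0.19 and -0.07. Controls of the Cox10 line measured 2229, 2336 and 2240 and the deficient lungs 2163, 2304 and 2085 (log2 fold change -0.06, SE 0.05, limma, adjusted p = 0.661). Loss of Tfam from the epithelium was not detectable in the whole-lung counts at this spread. In such bulk samples, fewer cells of a type and less RNA per cell cannot be told apart.

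Tfb2m (chr1:179528055-179546267, minus strand), the factor that opens the mitochondrial promoter with POLRMT, was the 1 gene of the group called lower in Rptor-deficient lungs. It measured 777, 755 and 818 in Rptor controls and 546, 627 and 684 in Rptor-deficient lungs, and every deficient lung was below every control. The deficient lungs were at 78.7% of control, with a 95% interval of 67.7% to 91.5% (log2 fold change -0.35, SE 0.10, limma, adjusted p = 0.023). The call rested on the full set of lungs: it was kept in 2 of 6 fits that left out 1 lung. Without Rptor control replicate 1, 2 or 3 the limma adjusted p was 0.0623, 0.053 and 0.0819, and without Rptor-deficient replicate 2 it was 0.0515, with the log2 fold change between -0.42 and -0.26 over all 6 fits. Tfb2m measured 780, 745 and 692 in Tfam controls and 762, 684 and 714 in Tfam-deficient lungs, which overlapped (log2 fold change -0.04, SE 0.08, limma, adjusted p = 0.849). Among Cox10 lungs it measured 773, 873 and 810 in controls and 754, 790 and 707 in deficient lungs (log2 fold change -0.13, SE 0.07, limma, adjusted p = 0.496). The difference between the Rptor and Tfam effects was -0.31 on the log2 scale (SE 0.12, limma, adjusted p = 0.0978), which did not pass the test.

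Marker levels of several other cell types, and of the cell cycle, also differed between the Rptor groups. They are RNA levels and no counts of cells. Beside the epithelial sum given above, the summed mesenchymal markers were at 189% of control (6 of 7 called higher), ranging from 208360 to 238480 in controls and from 404720 to 433210 in deficient lungs. Col1a1, Col1a2 and Col3a1 had the largest changes of that list (log2 fold change 0.95 to 1.14). Tbx4 was not called (-0.04, SE 0.06, limma, adjusted p = 0.654). The 6 cell cycle markers were all called lower, with a sum of 83525 to 90189 in controls and 67972 to 69359 in deficient lungs (79.3%). The sums were at 130% of control for 5 endothelial markers (4 called higher), 183% for 4 immune markers (4 called higher), 166% for 3 mesothelial markers (Wt1 and Upk3b called higher) and 125% for 4 markers of neurons and glia (0 called). The sums for neurons and glia overlapped (181.5 to 241.7 in controls, 223.3 to 319.2 in deficient lungs). The third mesothelial marker, Msln, went the other way without being called (log2 fold change -0.93, SE 0.37, limma, adjusted p = 0.0856). The red blood cell sum was at 129% with 0 called, and it overlapped between the groups as well. Of its 4 markers, Hbb-bt was not used and Hba-a1 was at 0 in all 6 lungs of the Rptor line. The part of these shifts in the Tfb2m result was not tested.

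Polrmt (chr10:79736123-79746581, minus strand) encodes the mitochondrial RNA polymerase. It measured 1217, 1101 and 1221 in Rptor controls and 1005, 1088 and 1055 in Rptor-deficient lungs. The groups did not overlap, yet control replicate 2 and deficient replicate 2 lay close together. The log2 fold change of -0.17 (SE 0.07) passed limma at an unadjusted p below 0.05 but had an adjusted p of 0.0955. In the Tfam line the controls measured 1432, 1412 and 1418 and the deficient lungs 1480, 1442 and 1249, and in the Cox10 line the controls measured 1270, 1258 and 1365 and the deficient lungs 1301, 1294 and 1143. Both of these pairs of groups overlapped, with log2 fold changes of -0.03 and -0.06 (SE 0.07 each) and limma adjusted p of 0.853 and 0.717. Tfb1m (chr17:3519256-3557781, minus strand), which methylates the ribosomal RNA of the small mitochondrial subunit, scattered more widely. Its lungs spanned 205 to 318 for Rptor, 260 to 324 for Tfam and 207 to 328 for Cox10, with the groups overlapping in each. Its log2 fold changes were 0.07, -0.06 and -0.22, and the last had a 95% interval of 64.7% to 114% of control.

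Among the replication genes, Polg (chr7:79446231-79466362, minus strand), the catalytic subunit of the DNA polymerase, measured 2584, 2442 and 2496 in Rptor controls and 2430, 2348 and 2404 in Rptor-deficient lungs. Every deficient lung was below every control, and the difference did not pass the test (log2 fold change -0.07, SE 0.05, limma, adjusted p = 0.35). Its groups overlapped in both other lines, each with a log2 fold change of 0.03. Polg2 (chr11:106768253-106779537, minus strand), the accessory subunit of that polymerase, was among the genes with the fewest reads. Its controls ranged from 120 to 190 and its deficient lungs from 183 to 203 in the Rptor line, where the log2 fold change of 0.30 had a limma 95% interval of -0.10 to 0.70. Polg2 measured 67 to 99 in Tfam controls and 80 to 96 in Tfam-deficient lungs, and 149 to 196 in Cox10 controls and 175 to 176 in Cox10-deficient lungs. Both pairs of groups overlapped.

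Ssbp1 (chr6:40471352-40484700, plus strand), which coats single-stranded mitochondrial DNA, measured 1325, 1308 and 1392 in Cox10 controls and 1240, 1281 and 1143 in Cox10-deficient lungs. Every deficient lung was below every control (log2 fold change -0.14, SE 0.06, limma, adjusted p = 0.395). In the Rptor line it ranged from 1110 to 1270 in controls and from 1001 to 1150 in deficient lungs, and in the Tfam line from 621 to 832 and from 683 to 774. Both of these overlapped, with log2 fold changes of -0.12 and 0.04. Top1mt (chr15:75657035-75678800, minus strand), the mitochondrial topoisomerase that relaxes the circular genome, ranged from 188 to 213 in Rptor controls and from 197 to 280 in Rptor-deficient lungs. Its log2 fold changes were 0.21 for Rptor, 0.17 for Tfam and -0.11 for Cox10, and the groups overlapped in each.

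The regulators of the group changed as little. Nrf1 (chr6:30047988-30153458, plus strand) encodes nuclear respiratory factor 1, which binds the core searched above. It measured 2256, 2260 and 2270 in Cox10 controls and 2162, 2176 and 1989 in Cox10-deficient lungs. The deficient lungs were all lower (log2 fold change -0.10, SE 0.05, limma, adjusted p = 0.439). Nrf1 overlapped in the Rptor line (1921 to 2132 in controls, 1843 to 1965 in deficient lungs, log2 fold change -0.09) and in the Tfam line (1610 to 1757 and 1618 to 1735, log2 fold change 0.01). Ppargc1b (chr18:61298136-61400431, minus strand), a coactivator of the PGC-1 family, spanned 113 to 188 for Rptor, 120 to 159 for Tfam and 113 to 164 for Cox10. Its log2 fold changes were 0.12, -0.17 and 0.18, with overlapping groups each time.

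**Figure D2:**
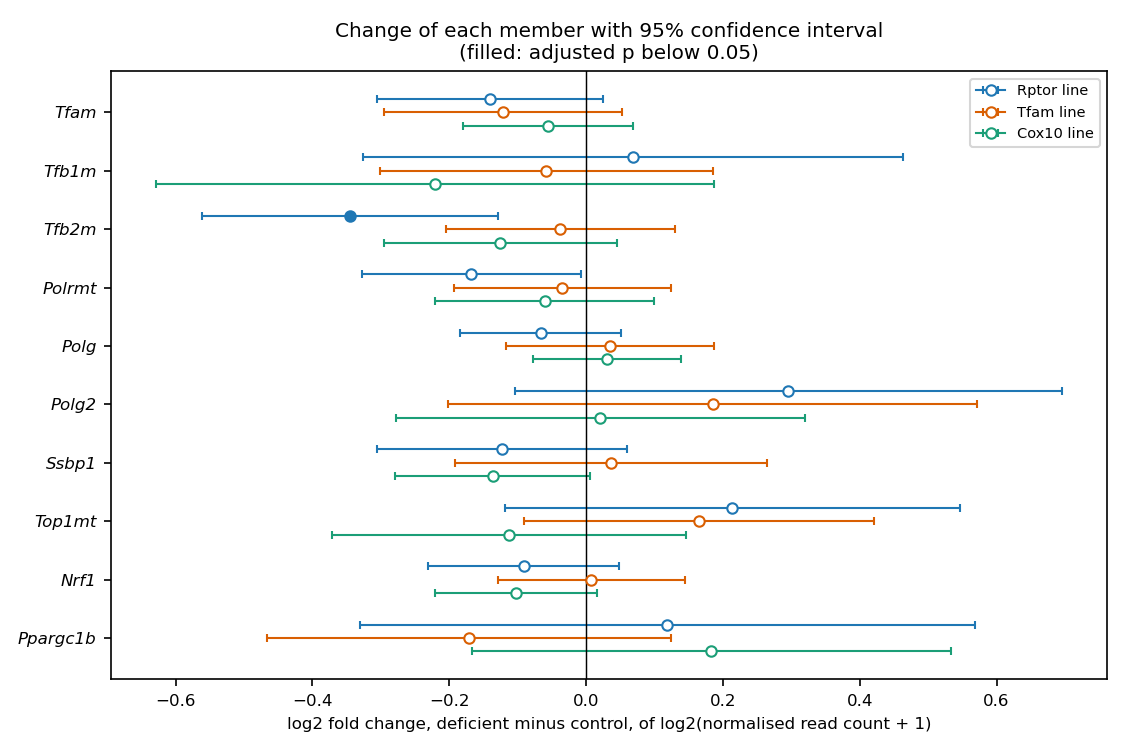
Log2 fold change, deficient minus control, of log2(normalised read count + 1) for each of the 10 genes (points) with the limma 95% confidence interval (bars), coloured by line. Filled points passed an adjusted p below 0.05. Tfb2m in the Rptor line is the filled point, at -0.35, and the widest intervals belong to genes with few reads such as Ppargc1b, Polg2 and Tfb1m.

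The precision differed between genes. Over the 10 genes the 95% intervals reached 67.7% to 162% of control for Rptor, 72.4% to 149% for Tfam and 64.7% to 145% for Cox10. The median distance from the estimate to the end of its interval was 0.20, 0.20 and 0.17 on the log2 scale. A fall of the size of that of Tfb2m lay inside the interval of Tfb1m and Top1mt in the Cox10 line and of Ppargc1b in the Tfam line, none of which was called.

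The effects on the 10 genes were compared between lines by subtracting the log2 fold change of a line from that of another in a limma fit of all 18 lungs. For the Rptor line against the Tfam line 0 of the 10 genes differed at an adjusted p below 0.05, where 11.2% of 14550 genes did. For Rptor against Cox10 it was 0 of 10, with 7.48% of all genes, and for Tfam against Cox10 0 of 10, with 0.055%. At an unadjusted p below 0.05, limma picked 1 gene (Tfb2m) for Rptor against Tfam, as it did 28% of all genes. It picked 0 for Rptor against Cox10 and for Tfam against Cox10, with 23% and 4.56% of all genes. Without Rptor-deficient replicate 3, 1 gene (Tfb2m) passed the adjusted limma test of Rptor against Tfam.

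The levels of the group also differed between the 3 sets of controls. Control Tfam was 1102 ± 73 (SD, n = 3) in the Tfam table, 2161 ± 48 (SD, n = 3) in the Rptor table and 2268 ± 59 (SD, n = 3) in the Cox10 table, so the Tfam table was at 49.7% of the mean of the others. Polg2 stood at 47.6%, Ssbp1 at 56.5%, Polg at 68.6% and Nrf1 at 77.2% in the same comparison, and the 3 Tfam-table controls were below all 6 others for these 5 genes. Top1mt (85.9%), Tfb2m (92.3%), Tfb1m (108%), Polrmt (115%) and Ppargc1b (116%) were nearer to the other tables, and the 3 Tfam-table controls were also below the 6 others for Top1mt and above them for Polrmt. Of 14550 genes, 1.64% had a ratio as low as that of Tfam or lower, and 4.31% differed by 1 or more on the log2 scale in either direction. The 10 genes together took 0.0277% to 0.0295% of the summed counts in the 6 lungs of the Tfam line and 0.0333% to 0.0387% in the 12 others. The tables were normalised separately, so the line, its floxed allele and the table cannot be told apart, and no test was made.

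**Figure D3:**
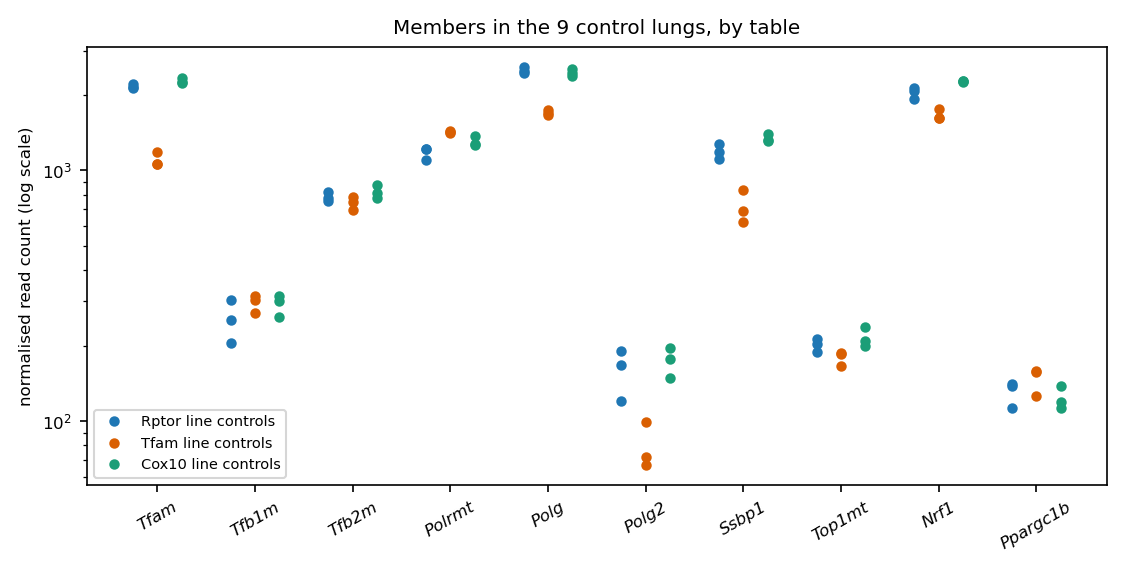
Normalised read count (log axis) of the 10 genes in the 9 control lungs, coloured by line. The controls of the Tfam line lie lower for Tfam (1057 to 1185 against 2125 to 2336), Polg, Polg2, Ssbp1 and Nrf1, and higher for Polrmt (1412 to 1432 against 1101 to 1365).

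Per kilobase of the principal transcript, Nrf1 was the most abundant of the 10 in all 3 sets of controls, at 1085 ± 57 (SD, n = 3) reads per kb in the Rptor table, and Ppargc1b the least, at 35.7 ± 4.2 (SD, n = 3). Tfam followed Nrf1 in the Rptor controls at 519 ± 12 (SD, n = 3) reads per kb, and Polg, Tfb2m and Polrmt came next at 320 ± 9, 320 ± 13 and 314 ± 18 (SD, n = 3 each), which did not differ beyond their spread. The order depended on the length: divided by all annotated exons of a gene (10282 bases for Nrf1, against 1879 in its principal transcript), Nrf1 ranked 5 and Tfam ranked 1 in the Rptor controls. On the opposite strand, exons of Fanci overlapped 8.57% of the exon bases of Polg, Gm15945 overlapped 4.65% of Top1mt, Tiam2 overlapped 3.93% of Tfb1m and Milr1 overlapped 3.03% of Polg2. Whether reads were counted by strand is not given in the sources used here, so reads of these pairs could be mixed.

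Across the 18 lungs, centred within each table, the 10 genes did not move as a block. Of their 45 pairs, 26 had a positive Pearson r, with a median of 0.11 and a range from -0.603 (Tfam and Top1mt) to 0.671 (Tfb2m and Polrmt). The genes most like Tfam among 12954 compared were Nipa2 (r = 0.929), Trp53rk (r = 0.914) and Yy2 (r = 0.906), over 18 lungs. These correlations describe lungs that share their table, normalisation and the contrast of deficient against control.

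The wider machinery was described with 61 further genes in 5 lists: replication and repair, nucleotide supply, elongation and termination, RNA processing and stability, and nuclear regulators. In the Rptor line 24 of the 61 were called by limma, 20 lower and 4 higher, against 18.2% lower and 16.6% higher among all genes. This fit did not pair lungs by number. The alternatives on all lungs, the replicate block among them, gave 14 to 32 of the 61 and 2719 to 5936 of all genes. In the Tfam line 0 of 61 were called, and 6 passed limma at an unadjusted p below 0.05, as 17.4% of all genes did. In the Cox10 line 0 of 61 were called, and 4 passed limma at that unadjusted p, as 13% of all genes did. With all 18 lungs in a single limma fit, 1 gene (Mterfd2) was called in the Cox10 line. The lower calls of the Rptor line were most numerous in the list of genes that process mitochondrial RNA, the longest list. All 5 lists were chosen with earlier results of these data known, so the contrast between them is a description only. Of the 20 genes in that list, 11 were lower and 0 higher, with a median log2 fold change of -0.28. Replication and repair had 5 lower and 1 higher of 14, nucleotide supply 2 lower and 1 higher of 11, elongation and termination 0 lower and 1 higher of 6, and the regulators 2 lower and 1 higher of 10. In the same Rptor-deficient lungs the epithelial marker sum was at 45.2% of control and the mesenchymal sum at 189%, and all 6 cell cycle markers were called lower (sum at 79.3%, median log2 fold change -0.35). The part of these shifts in the counts of the 5 lists was not tested.

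**Figure D4:**
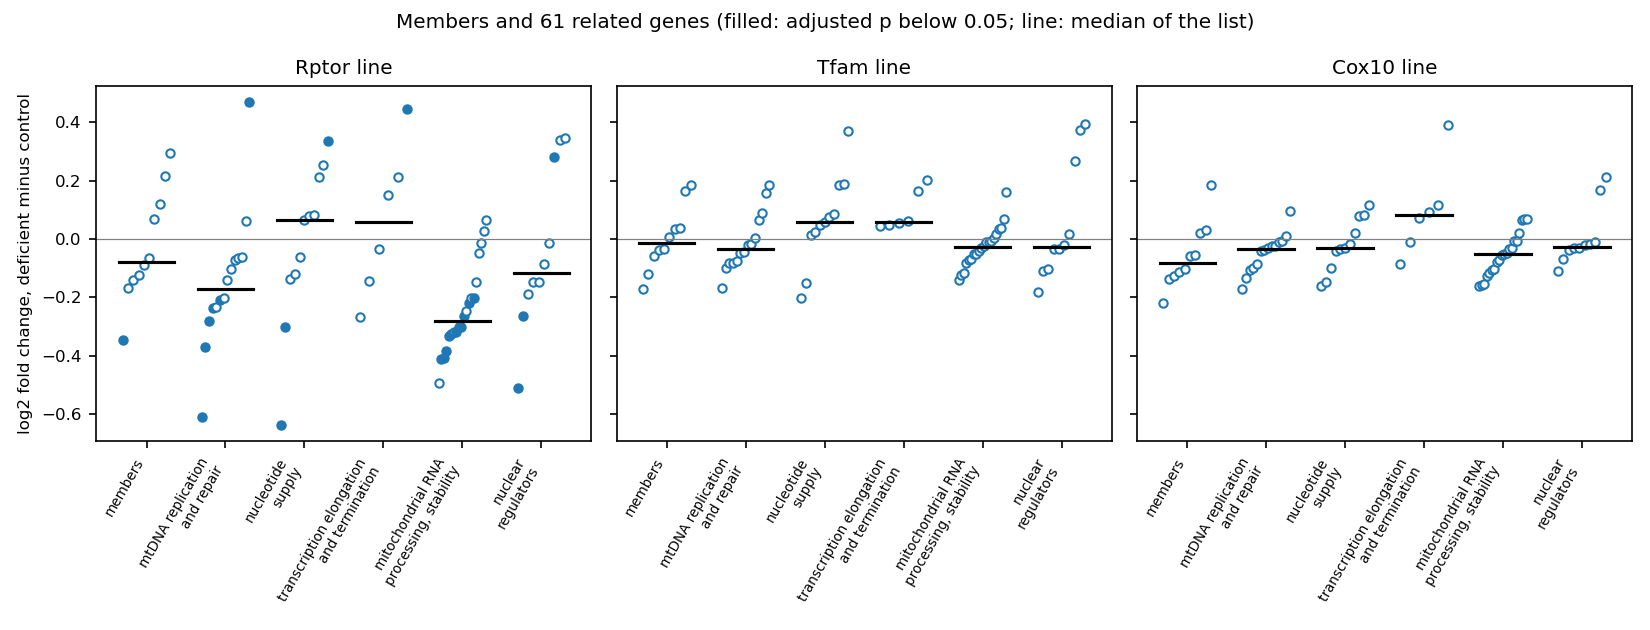
Log2 fold change, deficient minus control, for the 10 genes and for the 61 further genes of the 5 lists (points), in the 3 lines. Horizontal lines give the median of each list and filled points passed an adjusted limma p below 0.05. In the Rptor line the RNA processing list has 11 filled points, all below 0, and no point is filled in the Tfam and Cox10 lines. The lists were chosen with earlier results of these data known.

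The 3 largest called falls and the 3 largest called rises of these lists in the Rptor line were in genes of varied function. Slc25a33, a carrier of pyrimidine nucleotides into mitochondria, measured 231, 202 and 211 in controls and 131, 146 and 136 in deficient lungs (log2 fold change -0.64, SE 0.12, limma, adjusted p = 0.00448). Fen1, a flap endonuclease of nuclear as well as mitochondrial DNA replication, measured 3767, 3678 and 3855 in controls and 2133, 2583 and 2724 in deficient lungs (log2 fold change -0.61, SE 0.09, limma, adjusted p = 0.00137). Pprc1, a coactivator related to the PGC-1 proteins, measured 3709, 3678 and 3657 in controls and 2500, 2711 and 2540 in deficient lungs (log2 fold change -0.51, SE 0.05, limma, adjusted p = 0.000335). In all 3 genes every deficient lung was below every control. Of the genes that rose, Ccdc111 (Primpol), a primase and polymerase, measured 428, 389 and 402 in controls and 632, 564 and 497 in deficient lungs (log2 fold change 0.47, SE 0.11, limma, adjusted p = 0.00984). Mterfd2 (Mterf4), which acts in mitochondrial ribosome assembly, measured 1439, 1517 and 1423 in controls and 2085, 2059 and 1822 in deficient lungs (log2 fold change 0.44, SE 0.07, limma, adjusted p = 0.00199). Its deficient lungs were also above every control in the Cox10 line (log2 fold change 0.39, SE 0.09, limma, adjusted p = 0.133) and the Tfam line (0.20, SE 0.07, limma, adjusted p = 0.147). The Rptor effect on Mterfd2 differed from the Cox10 effect by 0.05 (SE 0.11, limma, adjusted p = 0.823), which did not pass the test. Mpv17, an inner membrane protein needed for mitochondrial DNA maintenance, measured 780, 870 and 777 in controls and 980, 1032 and 1045 in deficient lungs (log2 fold change 0.33, SE 0.07, limma, adjusted p = 0.00902). The groups did not overlap for these genes either. Each of these 6 calls was kept in all 6 limma fits that left out 1 lung.

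The effect on the 61 genes was also compared between lines, a comparison added after the data were seen. By limma, 9 of 61 differed between the Rptor and the Tfam line (8 lower in the Rptor line), where 11.2% of all genes did. Between the Rptor and the Cox10 line 2 of 61 differed, where 7.48% of all genes did. With the replicate block the counts became 12 of 61 for Rptor against Tfam (15.9% of all genes), 5 of 61 for Rptor against Cox10 (10% of all genes) and 0 of 61 for Tfam against Cox10 (0.0344% of all genes). Between the Tfam and the Cox10 line 0 of 61 differed, where 0.055% of all genes did, and 3 passed limma at an unadjusted p below 0.05, where 4.56% of all genes did. Leaving out single lungs moved the count for Rptor against Tfam to between 3 and 13 and that for Rptor against Cox10 to between 0 and 9, while the counts over all 14550 genes moved to between 852 and 2389 and between 678 and 1814. The marker shifts given above apply to these counts as well, and their part was not tested.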

How the data were processed

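RNA-seq of 18 whole lungs at 14.5 dpc was used, in 6 groups of 3 taken from the sample labels. Per the submitters' processing notes, Trim Galore, HISAT2, featureCounts and DESeq2 were used with build mm10. Their versions, settings and the gene annotation are not given in the sources used here. The authors deposited, for each line in its own table, a signal per gene and lung: the read count divided by a size factor of the library. They also deposited log2 fold changes, p-values and adjusted p-values of their own comparisons, which were not used.

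Genes with a value of at least 10 in at least 3 of the 6 lungs of a line were tested with limma 3.58.1 in R 4.3.3 (lmFit and eBayes with trend, two-sided) on log2(value + 1), a scale that understates changes of low genes. Lines were fitted separately, and p-values were adjusted by Benjamini-Hochberg over all genes tested. Effects were compared between lines in a limma fit of all 18 lungs. The code was tested on simulated data. In each of the 18 libraries all low values (up to about 20 steps) were whole multiples, within 0.1, of a step between 0.9775 and 1.02, so whole reads could be derived. The planned count tests on such reads were not run, and how they would change the calls is not known. Depth limits the precision of genes with few reads, and the intervals cover only the spread between lungs.

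Members and lists were chosen with earlier results of these data known. All 10 members were named, plus, per line, at most 3 rising and 3 falling called genes of the wider lists by size, and the 3 genes most correlated with Tfam. Older symbols were matched through RefSeq synonyms for 9 list genes and 1 marker, and transcript lengths were taken from GENCODE vM21 (principal transcript), choices made after the files were seen. Same-numbered lungs were the best match for every number in the Rptor line (r = 0.221, 0.33 and 0.259). In the Tfam line (r = -0.312, -0.207 and 0.151) and the Cox10 line (r = 0.447, 0.202 and 0.0488) this did not hold for every number. The labels do not give pairs. All results, those of the Rptor line included, come from fits without pairs unless the replicate block is named. Alternatives were scaling by library totals or trimmed means, a pseudocount of 0.1, other filters on low values, the replicate block, all lungs in a single fit, a threshold of 0.01 and leaving out each lung.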

Additional observations from a re-analysis of the deposited data

Results flagged for a closer look

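Among the genes named above, Slc25a33, Fen1 and Ccdc111 changed differently between lines in the limma fit of all 18 lungs, with adjusted p over all genes. None of the 10 genes of mitochondrial DNA maintenance and transcription did. These differences were tested after the data were seen. The genes had been named for the size of their change in the Rptor line. The same Rptor lungs thus chose the genes and entered the comparison, which favours a difference.

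Slc25a33 had a log2 fold change of -0.64 in Rptor lungs against 0.37 in Tfam lungs, a difference of -1.01 (SE 0.16, limma, adjusted p = 0.00101) that was kept in all 18 fits leaving out 1 lung. Against the Cox10 line (-0.04) the difference was -0.60 (SE 0.16, limma, adjusted p = 0.0337), kept in 10 of 18 such fits. It was lost without Rptor control replicate 1 or 3, Rptor-deficient replicate 1 or 3, Cox10 control replicate 1 or 3, or Cox10-deficient replicate 1 or 2, with limma adjusted p up to 0.0895 and a difference between -0.72 and -0.50 over the 18 fits.

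Fen1 had a log2 fold change of -0.61 in the Rptor line against -0.08 in the Tfam line, a difference of -0.53 (SE 0.13, limma, adjusted p = 0.0191). This was lost without Tfam control replicate 2 (adjusted p = 0.062) or Tfam-deficient replicate 3 (adjusted p = 0.0593) and kept in 16 of 18 fits. Against the Cox10 line (-0.14) the Fen1 difference was -0.47 (SE 0.13, limma, adjusted p = 0.0391), kept in 9 of 18 fits. It was lost without Rptor control replicate 1, 2 or 3, Rptor-deficient replicate 1, Tfam-deficient replicate 2, Cox10 control replicate 1, 2 or 3, or Cox10-deficient replicate 2, with limma adjusted p up to 0.0986. The difference itself lay between -0.55 and -0.37 over the 18 fits, and it was the same -0.47 without Tfam-deficient replicate 2, a lung outside this comparison that enters only the shared estimate of the spread and the adjustment.

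Ccdc111 had a log2 fold change of 0.47 in Rptor lungs against -0.10 in Tfam lungs, a difference of 0.57 (SE 0.13, limma, adjusted p = 0.0112), kept in all 18 fits. Against the Cox10 line (0.10) the Ccdc111 difference of 0.37 (SE 0.13, limma, adjusted p = 0.0965) did not pass, and it passed in 1 of 18 such fits.

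The Pprc1 difference did not pass in the fit of all 18 lungs without the replicate block, and passed with it. It was -0.33 for Rptor against Tfam (limma, adjusted p = 0.0969, or 0.033 with the block) and -0.40 for Rptor against Cox10 (limma, adjusted p = 0.0619, or 0.0196 with the block). Without the block, the first passed in 1 of 18 fits leaving out 1 lung (without Cox10-deficient replicate 3, limma adjusted p = 0.0302). The second passed in 2 of 18, without Tfam control replicate 3 (limma adjusted p = 0.0404) or Cox10-deficient replicate 3 (limma adjusted p = 0.00427). The block paired lungs by number in all 3 lines, although the labels do not give pairs. Same-numbered lungs were the best match for every number only in the Rptor line.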

How the results depend on the processing

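The count of the 10 genes called stayed at 1 (Rptor), 0 (Tfam) and 0 (Cox10) under both other scalings, both other filters, the other pseudocount, the replicate block and the fit of all 18 lungs. At an adjusted p below 0.01 the Rptor count became 0, the wider list 14 and all genes 2719, while all genes became 315 for Tfam and 15 for Cox10. Leaving out single lungs gave 0 to 1 of the 10 in the Rptor line, and 0 to 2 (Tfam line; 2 without Tfam control replicate 3) and 0 to 1 (Cox10 line; 1 without Cox10-deficient replicate 2) of the wider list. Genes called spanned 354 to 1114 for Tfam and 3 to 255 for Cox10 on leaving out a lung, and were 399 and 327 with all 18 lungs in a single fit, when 1 gene of the wider list was called in the Cox10 line. The replicate block changed no call among the 10 genes, and raised the wider list differing from 9 to 12 (Rptor against Tfam) and from 2 to 5 (Rptor against Cox10), with Pprc1 called in both. At an adjusted p below 0.01 the wider genes differing were 1 (Rptor against Tfam) and 0 (Rptor against Cox10), and leaving out a lung gave 3 to 13 and 0 to 9, with 0 to 1 of the 10 genes differing between Rptor and Tfam. The sign turned only on leaving out a lung. It did so for genes that were not called and for the median of the 10 genes in the Tfam line (-0.0352 to 0.0094). For Rptor lungs the log2 fold changes then spanned -0.0781 to 0.208 (Tfb1m) and -0.0850 to 0.260 (Ppargc1b). For Tfam lungs they spanned -0.151 to 0.00631 (Tfb1m), -0.0839 to 0.00240 (Tfb2m), -0.0816 to 0.0405 (Polrmt), -0.0109 to 0.102 (Polg), -0.0586 to 0.152 (Ssbp1) and -0.0208 to 0.0490 (Nrf1). For Cox10 lungs they spanned -0.0854 to 0.111 (Polg2) and -0.0927 to 0.000932 (Polrmt), and the Mterfd2 difference between Rptor and Cox10 spanned -0.0477 to 0.123. With the sign kept, Polg2 spanned 0.104 to 0.436 and Top1mt 0.0833 to 0.337 for Rptor lungs. The causes were not tested. The edgeR and DESeq2 alternatives were not run. With 3 lungs a group, whole-lung counts limit what can be seen of an epithelial change.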
